A study of Mus musculus with 4 samples.

Results

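Potassium channel subunit genes were followed in ingWAT (the inguinal white fat pad, which lies under the skin) of cold-exposed mice with and without Oct3 in adipocytes. The genes are those of the deposited table whose symbol starts with Kcn, followed by further letters and a digit, without *Kcnj8*, which makes 80 of the 19030 genes listed. Of these, 78 encode channel subunits and 2, *Kcnq1ot1* and *Kcnmb4os2*, are noncoding RNAs named after a channel gene. The symbol *Kcnrg* holds no digit and was left out by the same rule. All mice were C57BL/6, 3 months old and housed at 4°C, which the methods describe as reached by way of a milder temperature. The Ctrl group is Oct3 fl/fl, with loxP sites around exon 2, and the cKO group carries the same alleles with an Adiponectin-Cre transgene, which is active in adipocytes of every depot. With these 4 libraries, effects of the transgene itself and of the loss of Oct3 cannot be told apart. There were 2 libraries of each genotype, the study's methods describe male mice, and neither the labels nor the methods say how many mice each library holds, so the p-values measure the spread between libraries, which may be technical.

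Potassium channels let K+ leave or enter the cell along its gradient and so set the resting membrane potential. They fall into voltage-gated (Kv) channels built of 4 pore subunits, inward rectifiers (Kir), two-pore-domain leak channels (K2P), and channels opened by intracellular calcium or sodium, and several bind auxiliary subunits that set their gating and surface level. In brown and beige adipocytes the K2P channel encoded by *Kcnk3* (TASK-1) is known to carry an outward current that opposes the depolarisation evoked by adrenergic stimulation. Other members are best known from excitable tissue, vessels or lymphocytes, all of which can lie within or beside a fat pad.

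The values are FPKM, fragments scaled to transcript length and library size, which allow levels of different genes to be set side by side. Genes with a mean of at least 1 FPKM over the 4 libraries are called expressed here and were tested. Depth was estimated at 17350000 to 18100000 reads per library, and at that depth the expressed members stood on about 17 to 5225 reads per library. *Slc22a3*, which encodes Oct3, was at 16.95 and 17.68 FPKM in Ctrl and at 9.07 and 9.5 in cKO (log2FC -0.83, SE 0.066, BH-adjusted p = 0.000439 by limma), where log2FC is the log2 fold change of cKO against Ctrl and BH stands for the Benjamini-Hochberg method over all genes tested. Bulk tissue was sequenced, so fewer cells of a type and less RNA per cell cannot be told apart in any difference given here.

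Of the 80 members, 20 were expressed, and the remaining 60 had a mean under 1 FPKM. A mean of 10 FPKM was reached by 2 members, 18 members lay between 1 and 10, 31 between 0.1 and 1 and 29 under 0.1, and 17 were listed at 0 in at least 1 library. The highest mean was that of *Kcnk3* with 58.6 FPKM. Among the 5 highest were also *Kcnab2* (Kvβ2, a cytosolic auxiliary subunit of Kv1 channels) with 9.67, *Kcnn4* (KCa3.1, opened by calcium through calmodulin) with 6.59 and *Kcns3* (Kv9.3, a subunit that forms channels only with other Kv subunits) with 5.98 FPKM. By family, 8 of 33 Kv pore subunits were expressed, 4 of 11 K2P subunits, 2 of 12 inward rectifiers, 2 of 8 calcium- and sodium-activated pore subunits, 1 of 3 Kvβ subunits and 2 of 5 KCNE subunits, but 0 of 4 KChIP and 0 of 2 BK β subunits. The members nearest above the minimum were *Kcna3* with 1.10, *Kcna2* with 1.08 and *Kcne3* with 1.06 FPKM, and those nearest under it were *Kcnk13* with 0.95, *Kcne1l* with 0.902 and *Kcnj2* with 0.887.

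**Figure D1:**
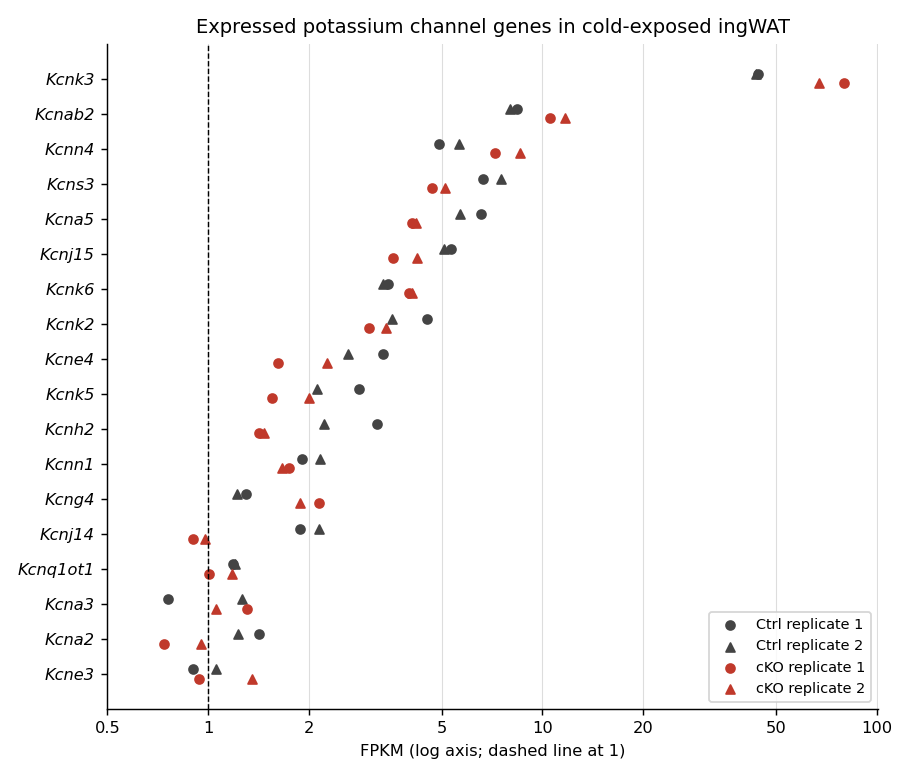
FPKM of 18 of the 20 expressed members in each library on a log axis, with genes ordered by mean, Ctrl libraries in grey and cKO libraries in red, and replicate 1 as circles and replicate 2 as triangles. *Kcnk3* lies apart from all others in each of the 4 libraries, with both cKO points to the right of both Ctrl points.

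The FPKM of the 80 members summed to 133.51 and 128.01 in Ctrl and to 154.57 and 147.72 in cKO. *Kcnk3* made up 33.0% and 34.0% of that sum in the Ctrl libraries and 51.6% and 45.5% in the cKO libraries. Without *Kcnk3* the sums were 89.44 and 84.45 in Ctrl and 74.8 and 80.56 in cKO, so without this gene the cKO libraries were the lower ones. The 33 Kv pore subunits summed to 39.33 and 37.96 FPKM in Ctrl against 30.54 and 30.77 in cKO, and the 12 inward rectifiers to 11.12 and 10.5 against 7.01 and 7.68. These sums are descriptions and were not tested.

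**Figure D2:**
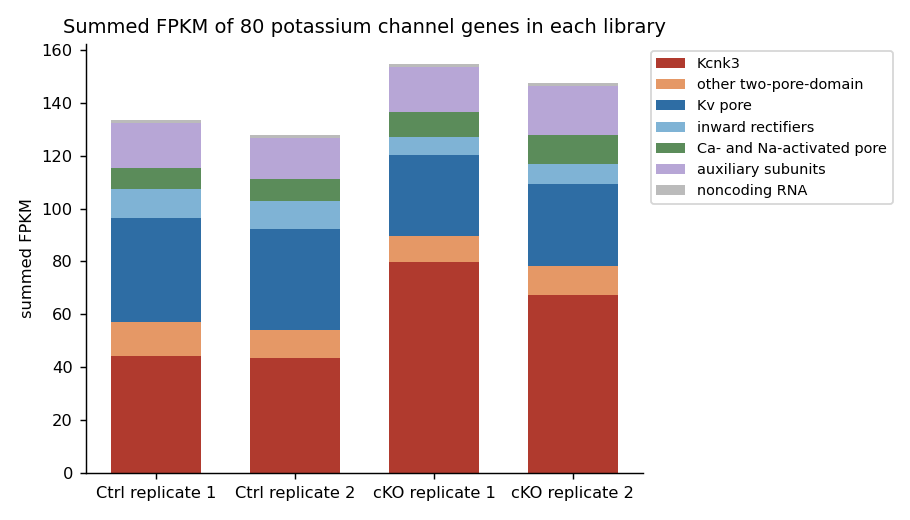
Summed FPKM of the 80 members in each of the 4 libraries, stacked by family, with *Kcnk3* shown apart from the other K2P subunits. The *Kcnk3* segment grows from 33.0% and 34.0% of the bar in the Ctrl libraries to 51.6% and 45.5% in the cKO libraries, while the Kv pore and inward rectifier segments are smaller there.

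The genotypes were compared on log2(FPKM + 1), a scale that understates the change of low genes, with limma over all 12658 genes with a mean of at least 1 FPKM. Of the 20 expressed members, 9 had an adjusted p under 0.05, where 25.8% of all genes tested did. *Kcnk3*, *Kcnn4*, *Kcng4* and *Kcnab2* were higher in cKO (12.0% of all genes tested), and *Kcnj14*, *Kcnh2*, *Kcna5*, *Kcns3* and *Kcnj15* were lower (13.8%). All 9 are pore subunits apart from *Kcnab2*. The median log2 fold change of the 20 members was -0.21, against -0.006 over all genes tested, with 8 values above 0 and 12 below. The genotypes did not overlap for 17 of the 20 (66.5% of all genes tested): cKO lay wholly above Ctrl for 5 (31.9%) and wholly below for 12 (34.6%). Of the 20, 17 had a mean of at least 1 FPKM in each genotype, while *Kcnj14* and *Kcna2* passed the minimum through their Ctrl libraries and *Kcne3* through its cKO libraries. The calls rest on 2 libraries a side, and with 1 library left out a genotype keeps only 1. In each of these settings fewer genes were called, over all genes and among the members. All 9 kept the direction of their log2 fold change. It ran from 0.6 to 0.85 for *Kcnk3* and from -0.78 to -0.4 for *Kcnh2*. With no minimum on FPKM, 9.26% of all 19030 genes were called. *Kcnk3* and *Kcnj14* stayed called there and the other 7 did not.

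**Figure D3:**
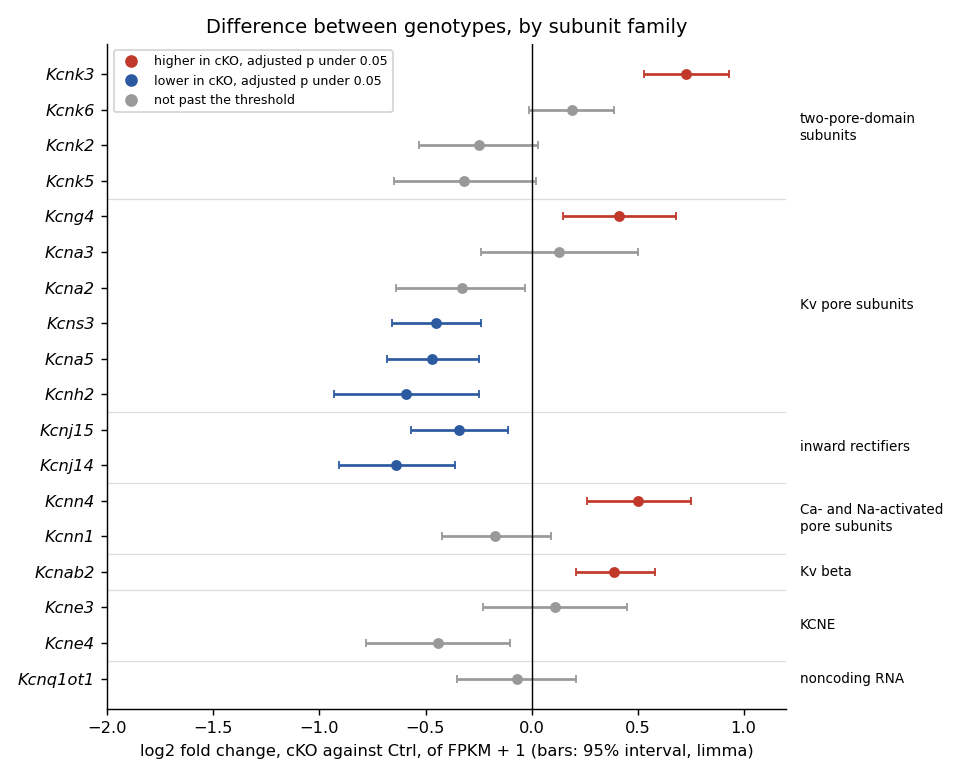
Log2 fold change of cKO against Ctrl for 18 of the 20 expressed members, grouped by family, with 95% intervals from limma. The 4 members called higher (red) come from 4 families, and the 5 called lower (blue) are Kv pore subunits and inward rectifiers.

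Marker genes of several cell types moved with genotype. Of the 13 tested skeletal muscle markers 13 were lower in cKO, and their list of 15 summed to 2710 and 1850 FPKM in Ctrl against 48.6 and 48.0 in cKO. Of 7 tested Schwann cell and nerve markers 6 were lower and 1, *S100b*, was higher (273 to 301 FPKM against 133 to 146). Also lower were 7 of 9 fibroblast and progenitor markers (1380 to 1610 against 913 to 928) and 8 of 10 white adipocyte markers (30700 to 32100 against 23800 to 24100). Brown and beige adipocyte markers were higher for 9 of 10 and lower for 1, *Ebf2* (1550 to 1830 FPKM against 4110 to 4870). T cell markers were higher for 7 of 9 (97.2 to 101 against 133 to 177) and B cell markers for 9 of 10 (270 to 305 against 411 to 465). Among 10 tested smooth muscle and pericyte markers 5 were lower and 1 higher (201 to 211 FPKM against 169 to 172). Endothelial markers were lower for 4 of 10 (335 to 343 against 288 to 307). Macrophage markers were higher for 2 of 10 and lower for 4 (1030 to 1180 against 1080 to 1100). Neutrophil markers were higher for 4 of 5 tested and lower for 1 (25.4 to 27.9 against 35.1 to 35.6). Keratinocyte markers (1 of 2 tested lower, 4.5 to 4.64 FPKM against 2.65 to 2.76) and mammary epithelial markers (0 of 8 tested, 3.01 to 3.06 against 1.82 to 1.89) were near absent, with *Krt5*, *Krt1*, *Dsg3*, *Dsp* and *Krt8* under 0.1 FPKM in every library. The smooth muscle regulator *Myocd* and the neutrophil marker *Ly6g* were likewise under 0.1 FPKM in every library. The part of these shifts in the differences of the channel genes was not tested.

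**Figure D4:**
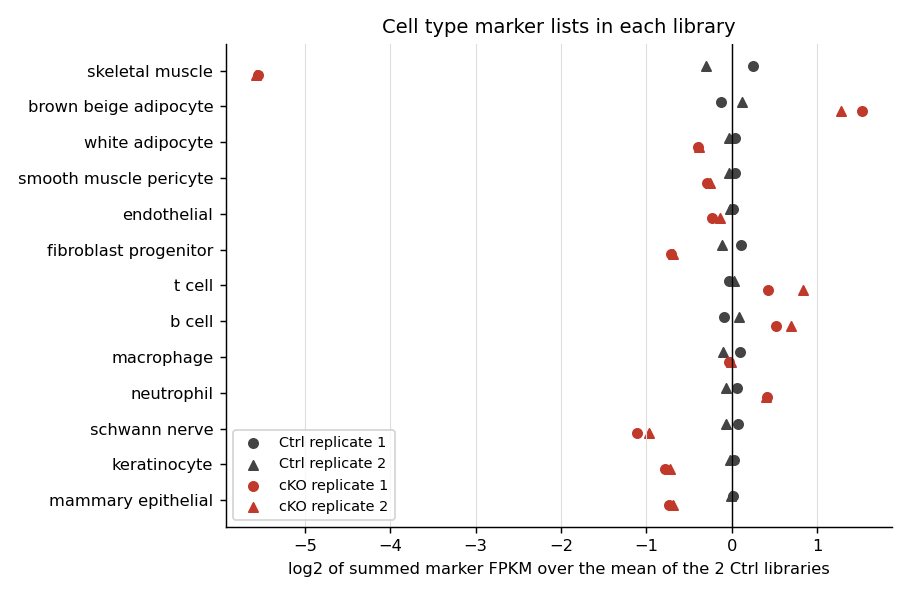
Summed FPKM of each cell type marker list in each library, as log2 of the ratio to the mean of the 2 Ctrl libraries, with Ctrl in grey and cKO in red. Skeletal muscle markers are lower in both cKO libraries by more than any other list, and brown and beige adipocyte markers are the list that is furthest above its Ctrl level.

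*Kcnk3* (Entrez gene 16527), at chr5:30588170-30625270 in GRCm38.p6, was at 44.07 and 43.56 FPKM in Ctrl and at 79.77 and 67.16 in cKO. The groups did not overlap, and the spread between the cKO libraries was wider than that between the Ctrl libraries. Its mean rose 1.68-fold, from 43.8 ± 0.361 FPKM in Ctrl to 73.5 ± 8.92 FPKM in cKO (SD, n = 2), with a log2FC of 0.73 (SE 0.084, BH-adjusted p = 0.00147 by limma, above Ctrl in 2 of 2 libraries). It was the only member called under all 11 alternatives, with adjusted p from 0.000123 to 0.0389. The study shows this gene among brown-fat-selective genes in a heat map of the same libraries, so its direction is not independent evidence for that group. Brown and beige adipocyte markers summed to 1550 and 1830 FPKM in Ctrl and to 4870 and 4110 in cKO, and the part of these cells, or of their state, in its rise was not tested.

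The 3 other expressed K2P genes did not pass the threshold. *Kcnk6* (TWIK-2, a leak channel of endomembranes and macrophages) was at 3.46 and 3.34 FPKM in Ctrl and at 3.99 and 4.07 in cKO, and the interval of its log2 fold change reached from -0.01 to 0.39. *Kcnk2* (TREK-1, opened by stretch and lipids) was at 4.52 and 3.55 against 3.03 and 3.4 FPKM, with an interval from -0.53 to 0.03. *Kcnk5* (TASK-2, sensitive to pH) was at 2.82 and 2.12 against 1.55 and 2.01 FPKM, with an interval from -0.65 to 0.02. Among expressed K2P genes the difference between genotypes thus passed the threshold for *Kcnk3* alone, and whether it differed from that of the others was not tested.

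Among the Kv pore subunits, the genes of 2 electrically silent subunits, which reach the surface only when assembled with other Kv subunits, differed in opposite directions. *Kcns3* (Entrez gene 238076) was at 6.65 and 7.5 FPKM in Ctrl and at 4.67 and 5.11 in cKO, 1.45-fold lower, with a log2FC of -0.45 (SE 0.0892, BH-adjusted p = 0.0105 by limma). *Kcng4* (Kv6.4, Entrez gene 66733) was at 1.3 and 1.22 FPKM in Ctrl and at 2.14 and 1.89 in cKO, 1.6-fold higher, with a log2FC of 0.41 (SE 0.112, BH-adjusted p = 0.0339 by limma).

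*Kcna5* (Entrez gene 16493) encodes Kv1.5, known from atrial myocytes and vascular smooth muscle. It was at 6.55 and 5.68 FPKM in Ctrl and at 4.07 and 4.2 in cKO, 1.48-fold lower, with a log2FC of -0.47 (SE 0.091, BH-adjusted p = 0.0101 by limma). The groups did not overlap. *Kcnh2* (Entrez gene 16511), the hERG channel of cardiac repolarisation, was at 3.2 and 2.22 FPKM in Ctrl and at 1.42 and 1.47 in cKO, 1.88-fold lower, with a log2FC of -0.59 (SE 0.143, BH-adjusted p = 0.0235 by limma). The Ctrl libraries of *Kcnh2* were further apart than the cKO libraries, with a ratio of replicate 1 to replicate 2 of 1.44, where the summed skeletal muscle markers had a ratio of 1.47. Ratios of this size also occurred in some members whose groups overlapped, such as *Kcnk13* (1.5), while others lay near 1. The part of muscle tissue in the Ctrl values of *Kcnh2* was not tested.

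*Kcna2* and *Kcna3* lay close to the minimum. *Kcna2* (Kv1.2, an axonal channel) was at 1.42 and 1.23 FPKM in Ctrl and at 0.74 and 0.95 in cKO, and the groups did not overlap (BH-adjusted p = 0.102 by limma). *Kcna3* (Kv1.3, the main Kv channel of T cells) was at 0.76 and 1.26 against 1.31 and 1.06 FPKM, which overlapped, with an interval of the log2 fold change from -0.24 to 0.5.

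Both expressed inward rectifier genes were lower in cKO. *Kcnj14* (Kir2.4, Entrez gene 211480) was at 1.89 and 2.14 FPKM in Ctrl and at 0.9 and 0.98 in cKO, 2.14-fold lower, with a log2FC of -0.64 (SE 0.115, BH-adjusted p = 0.00786 by limma). This was the largest fall among the expressed members, on about 90 and 102 reads in Ctrl and 41 and 45 in cKO. *Kcnj14* passed the minimum through its Ctrl libraries, its cKO mean being 0.94 FPKM. Some members under the minimum, such as *Kcnj2* (2.48-fold lower), fell further. *Kcnj15* (Kir4.2, Entrez gene 16516) was at 5.32 and 5.08 FPKM in Ctrl and at 3.58 and 4.23 in cKO, 1.33-fold lower, with a log2FC of -0.34 (SE 0.0957, BH-adjusted p = 0.039 by limma). For both genes the groups did not overlap.

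*Kcnn4* (Entrez gene 16534), at chr7:24369826-24385212 in GRCm38.p6, is known from lymphocytes, macrophages and red cells. It was at 4.91 and 5.65 FPKM in Ctrl and at 7.23 and 8.59 in cKO, and the groups did not overlap. The mean was 1.5-fold higher in cKO, with a log2FC of 0.50 (SE 0.104, BH-adjusted p = 0.0125 by limma). T cell markers summed to 1.56 times, B cell markers to 1.52 times and macrophage markers to 0.987 times their Ctrl level in cKO. The part of these cells in the rise of *Kcnn4* was not tested. *Kcnn1* (SK1, a small-conductance channel gated through calmodulin) was at 1.91 and 2.16 FPKM in Ctrl and at 1.75 and 1.66 in cKO, with an interval of the log2 fold change from -0.42 to 0.09.

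Of the auxiliary subunits, *Kcnab2* (Entrez gene 16498) was at 8.42 and 8.02 FPKM in Ctrl and at 10.53 and 11.7 in cKO. It was 1.35-fold higher, with a log2FC of 0.39 (SE 0.0774, BH-adjusted p = 0.0107 by limma), and the groups did not overlap. *Kcne4*, a single-pass subunit that inhibits several Kv1 channels, was at 3.33 and 2.63 FPKM in Ctrl and at 1.62 and 2.27 in cKO, 1.53-fold lower, and did not pass (BH-adjusted p = 0.065 by limma). *Kcne3*, of the same family, was at 0.9 and 1.06 against 0.94 and 1.35 FPKM, which overlapped. The noncoding *Kcnq1ot1*, transcribed from within *Kcnq1* in the opposite direction, was at 1.19 and 1.2 FPKM in Ctrl and at 1.01 and 1.18 in cKO, with an interval of the log2 fold change from -0.35 to 0.21. The protocol is not stated to mark strand, so reads of *Kcnq1ot1* and of *Kcnq1*, and those of *Kcnmb4os2* and *Kcnmb4*, cannot be told apart where the genes overlap.

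Promoter windows from 250 bases before to 50 bases after a transcript start were taken from RefSeq on GRCm38.p6, which held 84 windows for 59 of the 80 members. They were searched on both strands for TGACGT, the core of the cAMP response element through which protein kinase A acts on transcription. The letters occurred in 6 of the 84 member windows (7.14%) and in 7.51% of all 32851 windows. Among the members called, 7 had 10 windows, and 1 of these held the letters. *Kcnab2* has 3 windows, of which 1 holds the letters and 2 do not. The window with the match is shown beside the window of *Kcnn4*, which has none, both genes being higher in cKO. The *Kcnn4* window begins inside the interval given above for that gene, so the bases before that interval were not searched. Each window is written 5′ to 3′ on the strand of the gene. In the window shown for *Kcnab2* the capitals mark the match, which reads TGACGT on the other strand and begins 176 bases before the start. A match is a description of the letters and says nothing of binding.
Kcnab2, chr4:152477500-152477799, minus strand: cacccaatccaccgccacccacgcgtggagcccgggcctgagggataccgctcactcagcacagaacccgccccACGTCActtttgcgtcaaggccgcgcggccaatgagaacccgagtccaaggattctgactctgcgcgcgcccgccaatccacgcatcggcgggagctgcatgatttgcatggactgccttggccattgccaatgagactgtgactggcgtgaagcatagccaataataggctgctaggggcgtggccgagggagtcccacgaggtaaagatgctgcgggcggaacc
Kcnn4, chr7:24370013-24370312, plus strand: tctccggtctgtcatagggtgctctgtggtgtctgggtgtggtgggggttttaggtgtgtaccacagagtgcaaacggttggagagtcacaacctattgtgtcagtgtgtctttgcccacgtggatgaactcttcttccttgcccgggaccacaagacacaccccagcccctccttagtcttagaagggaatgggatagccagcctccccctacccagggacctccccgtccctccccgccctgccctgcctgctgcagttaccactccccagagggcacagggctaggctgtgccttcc

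The 60 members with a mean under 1 FPKM were not tested with the others. In 17 of them cKO lay wholly below Ctrl and in 5 wholly above, where 20.6% and 14.6% of all genes with a mean under 1 did so and 35.2% did either. Of the 31 with a mean from 0.1 to 1, 12 lay below, 3 above and 16 overlapped. The shares over all genes in that range were not counted, so these counts have no background beside them. *Kcnk13*, *Kcne1l*, *Kcnj2*, *Kcnq1* and *Kcna1* had a Ctrl mean of at least 1 FPKM, while no member under the overall minimum had a cKO mean of at least 1. When all 19030 genes were tested without a minimum, 9.26% of them were called, 5.75% lower and 3.50% higher, and *Kcnj2*, *Kcna1*, *Kcna7* and *Kcnj12* of these 60 were called lower and 0 higher, at limma adjusted p from 0.0284 to 0.0354. These 4 are named because of that result, after their values were seen.

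*Kcnj2* (Kir2.1, which holds the resting potential of skeletal and heart muscle) was at 1.25 and 1.28 FPKM in Ctrl and at 0.5 and 0.52 in cKO, 2.48-fold lower. *Kcna1* (Kv1.1, an axonal channel that assembles with Kv1.2) was at 1.11 and 1.17 FPKM in Ctrl and at 0.49 and 0.57 in cKO, 2.15-fold lower. In both genes the libraries of each genotype lay close together and the groups were well apart. *Kcna7* (Kv1.7, a channel of muscle) was at 0.8 and 0.59 FPKM in Ctrl and at 0.1 and 0.03 in cKO, which is about 31 and 23 reads against 4 and 1. *Kcnj12* (Kir2.2, also of muscle) was at 0.55 and 0.45 against 0.11 and 0.1 FPKM, about 23 and 19 reads against 4 and 4. *Kcnc4* (Kv3.4, known from fast skeletal muscle and neurons), also chosen after its values were seen, was at 0.25 and 0.17 against 0.02 and 0.02 FPKM, about 16 and 11 reads against 1 and 1, and was not called without a minimum (limma adjusted p = 0.0539). The ratio of Ctrl replicate 1 to Ctrl replicate 2 was 1.36 for *Kcna7*, 1.47 for *Kcnc4* and 1.22 for *Kcnj12*, each on few reads. It was 0.977 for *Kcnj2* and 0.949 for *Kcna1*. The summed skeletal muscle markers had a ratio of 1.47. The summed Schwann cell and nerve markers had a ratio of 1.1 and were 2.06-fold lower in cKO. These ratios were not compared by a test. The neuronal gene *Slc6a2* of that list was at 0.24 and 0.18 FPKM in Ctrl and at 0.1 and 0.1 in cKO, under the minimum. The summed list is therefore no measure of axons. The part of muscle and nerve in the falls of these channel genes was not tested.

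Among the 3 members of that range that lay higher in both cKO libraries were *Kcnab3* (0.63 and 0.53 against 0.76 and 0.73 FPKM) and *Kcnip2* (0.11 and 0.19 against 0.29 and 0.46 FPKM). *Kcnip2* rested on about 3 and 6 reads in Ctrl and 8 and 13 in cKO. The next 4 genes are named for their roles, after their values were seen. *Kcnj11* (Kir6.2), the pore of ATP-sensitive channels, was at 0.93 and 0.54 FPKM in Ctrl and at 0.85 and 0.57 in cKO, and the groups overlapped. *Kcnma1*, the pore of large-conductance calcium-activated (BK) channels, was at 0.45 and 0.47 against 0.34 and 0.26 FPKM, and its β subunits *Kcnmb1* and *Kcnmb4* overlapped between genotypes.

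**Figure D5:**
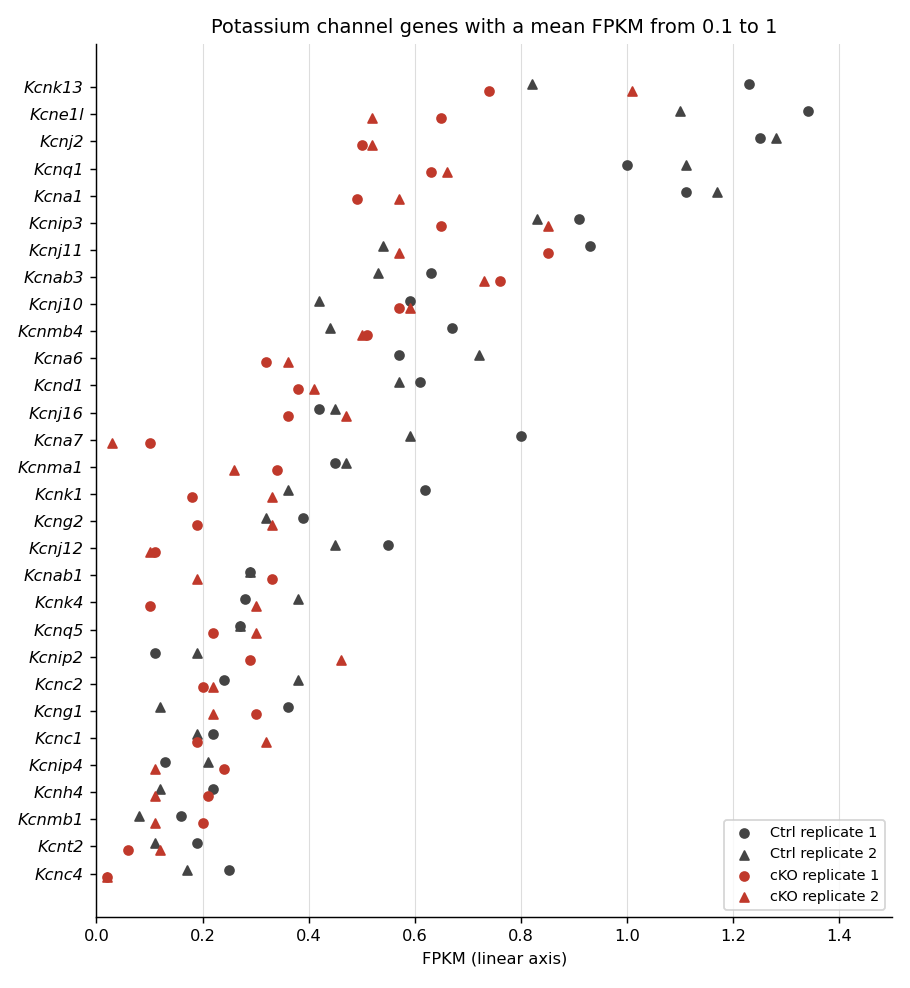
FPKM of 30 of the 31 members with a mean from 0.1 to 1 in each library on a linear axis, with genes ordered by mean, Ctrl in grey and cKO in red, and replicate 1 as circles and replicate 2 as triangles. In *Kcnj2*, *Kcna1*, *Kcna7*, *Kcnj12* and other genes both cKO points lie to the left of both Ctrl points, and in *Kcnab3* and *Kcnip2* to the right.

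Of 36 partner genes that act with these subunits or move potassium by other routes, 19 could be tested. Of these, 4 were higher in cKO (12.0% of all genes tested), 5 were lower (13.8%) and 10 did not pass. The median log2FC of the 19 was -0.06. *Hcn2*, a cation channel opened by hyperpolarisation and cyclic AMP, was at 0.87 and 1.08 FPKM in Ctrl and at 3.34 and 2.5 in cKO, with a log2FC of 0.98 (SE 0.139, BH-adjusted p = 0.00298 by limma). Its Ctrl mean was under 1 FPKM, so it passed the minimum through its cKO libraries. Of the Na+/K+ pump genes, the β subunit *Atp1b1* rose from 4.54 ± 0.0566 to 6.21 ± 0.29 FPKM, while the β subunit *Atp1b2* fell from 8.47 ± 1.05 to 4.79 ± 0.544 FPKM (SD, n = 2 each). Of the pump regulators, *Fxyd5* rose from 47.1 ± 0.523 to 69.0 ± 3.72 FPKM, and *Fxyd2* and *Fxyd6* fell from 20.9 ± 3.1 to 11.7 ± 1.33 and from 7.57 ± 0.106 to 5.47 ± 0.764 FPKM (SD, n = 2 each). The K+-Cl- cotransporter gene *Slc12a4* fell from 12.9 ± 0.594 to 9.93 ± 0.622 FPKM (SD, n = 2 each). *Tmem38a*, a K+-permeable channel of the sarcoplasmic reticulum that is abundant in muscle, fell from 13.8 ± 3.23 to 2.58 ± 0.134 FPKM (SD, 2 libraries each). Of the tested skeletal muscle markers 13 of 13 were lower, and the part of muscle in the fall of *Tmem38a* was not tested. Outside the rule for naming, *Abcc9*, the sulfonylurea receptor that pairs with Kir6 pores, was at 10.24 and 10.07 FPKM in Ctrl and at 7.85 and 9.15 in cKO and did not pass (BH-adjusted p = 0.0849 by limma), and *Abcc8* was under 0.1 FPKM in every library. No BK γ subunit (*Lrrc26*, *Lrrc38*, *Lrrc52*, *Lrrc55*) and neither of the Kv4 partners *Dpp6* and *Dpp10* reached a mean of 1 FPKM.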

How the data were processed

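Polyadenylated RNA of ingWAT was sequenced by the authors with single-end reads on a BGISEQ-500, for 2 Ctrl and 2 cKO libraries. The submitters' processing notes name HISAT2 2.0.4, RSEM 1.2.12 and mm10, without their roles. The deposited values are FPKM per gene and library, given to the hundredth, with no further scaling between libraries stated. Columns were matched to libraries by their titles, and 0 per-sample columns were left unused.

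Genes whose mean reached 1 FPKM were tested with limma 3.58.1 (R 4.3.3, eBayes with a trend) on log2 values after adding 1 FPKM, two-sided, with Benjamini-Hochberg adjustment over all 12658 genes and a threshold of 0.05. An exact permutation test of 2 against 2 libraries cannot give a p under 0.333 and was not used. In simulated data of 12658 genes, 200 of 200 genes changed 2-fold and 16 unchanged genes were called. The changed genes were drawn from those with higher levels, and the noise was independent between libraries. On the log2(FPKM + 1) scale that change was larger than that of any member called. The simulation therefore does not show how well changes of the members' size, or of low genes, are found. With no gene changed, 2 were called.

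Depth was estimated from the steps between FPKM values of short RNAs, where 83.7% to 87.8% of values came out whole within 0.1 reads, with a largest error of 2.86% on simulated libraries. Reads behind a member are approximate, since transcript lengths came from GENCODE M21. Coordinates are those of RefSeq on GRCm38.p6, the assembly of mm10, where all 80 members were found.

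By rule, the text names expressed members past the threshold, the 5 highest members, the 3 on each side of the minimum, the highest member not passing in each family and partner genes that passed. Single values of other members go beyond the rule and were chosen after they were seen. Results of some genes are counted but not reported here. The members and lists were chosen with earlier results of these data known. Alternatives were a pseudocount of 0.1, no minimum, a minimum of 5, a block for the replicate number, quantile normalization, median-of-ratios scaling, no trend and leaving out each library. Expression was also counted at a mean of 0.5, or at 1 in both libraries of a genotype. Python 3.11.15 was used for the other steps.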

Additional observations from a re-analysis of the deposited data

How the results depend on the processing

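The 9 members called stayed called with a pseudocount of 0.1, median-of-ratios scaling, quantile normalization and eBayes without a trend. With no minimum on FPKM 1762 genes in all and 6 members were called, 2 of them (*Kcnk3* and *Kcnj14*) among the 9, and of the members called higher 1 was left. With a minimum of 5, 6 members could be tested and 5 were called, 2 of them lower, where 2868 of all 8784 genes tested were called. With 1 library left out, 787 to 2340 genes in all, 1 to 6 members, 1 to 3 members higher, 0 to 5 members lower and 2 to 9 partner genes were called. The 0 lower calls by limma are those without Ctrl replicate 1, where *Kcnk3* alone was called. A minimum of 0.5 gave 31 expressed members. Of the members that had not passed, *Kcne4* was called without cKO replicate 2 and *Kcna2* without a trend. Among the expressed members named, the sign turned for *Kcna3* (-0.05, with 0.31 as its highest log2FC with a library left out) without Ctrl replicate 1, for *Kcnq1ot1* (0.01) under quantile normalization and for *Kcne3* (-0.03, with 0.25 as its highest) without cKO replicate 2, none of them called. The cause was not tested.

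The labels number the libraries 1 and 2 in both genotypes, but nothing says that equal numbers share a mouse, litter or day. Deviations of same-numbered libraries from their group means had a correlation of 0.0148 over 12658 genes. With the replicate number as a block 3383 genes in all and 9 members were called, 4 higher and 5 lower, and 9 partner genes. Fewer genes tested or fewer libraries are part of these settings by construction, and depth limits the members under 1 FPKM most.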
